A study of Mus musculus with 8 samples.

Results

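Mast cell protease genes in the epithelial cells of mouse pancreatic tumors are described here through 6 genes, Mcpt1, Mcpt2, Mcpt4, Mcpt8, Cma1 and Prtn3, which are 6 of the 27775 gene rows in each of 2 single-cell count tables. The genes were picked by name after earlier results of these same tables were known, so their levels, the cells that hold them and the markers found with them are given as descriptions, with no test. One table came from a medium size tumor and the other from a large size tumor, each a pancreatic ductal adenocarcinoma of an untreated KPC mouse. KPC mice are a genetic model in which Cre under the Pdx-1 promoter acts in the pancreas, and the tumor size was the only labelled difference between the 2 tables. Each tumor was dissociated to single cells and profiled with the 10x Genomics 3′ kit, and its 4 technical replicates were pooled in 1 table, so no replicate spread, p-value or test across animals could be had. The ages of the mice were not given in the sources used here.

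Mast cells are tissue-resident immune cells that store serine proteases in granules, bound to the proteoglycan serglycin, and release them when triggered through the IgE receptor (Fcer1a, Ms4a2) or other receptors; they depend on the receptor Kit and also store carboxypeptidase A3 (Cpa3). In mice, Mcpt1 and Mcpt2 are the chymase-family proteases of mucosal mast cells, Mcpt4 and Cma1 are chymases of connective tissue mast cells, and Mcpt8 is a protease of basophils. These genes sit beside granzymes and cathepsin G in a single locus. Prtn3, or proteinase 3, is a neutrophil granule protease that is made mostly by myeloid precursors and lies elsewhere in the genome. Epithelial cells are told from these by keratins (Krt8, Krt18) and E-cadherin (Cdh1).

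Of the 6 genes, 5 lay within 143.8 kb of chromosome 14 (GRCm38, GENCODE annotation). Cma1 was at chr14:55941451-55944675 on the minus strand, Mcpt1 at chr14:56017971-56020384 and Mcpt2 at chr14:56042041-56044642 on the plus strand, and Mcpt4 at chr14:56059629-56062313 and Mcpt8 at chr14:56082166-56085273 on the minus strand. Prtn3 was at chr10:79874476-79883174 on the plus strand, 3072 bases before the neutrophil elastase gene Elane. The 250 bases before the transcription start are shown for 4 of the genes, because Mcpt1 and Mcpt4 have near copies of each other's promoter but very different counts, while Mcpt8 was highest in different epithelial-like clusters and Prtn3 in monocyte/macrophage-like cells. The sequences are from RefSeq (GRCm38.p6), which matched 5 of the 6 genes; Mcpt2 was the one without an entry. Capitals mark 3 kinds of match, searched on both strands. The first is the letters TATAAA, known as the core of a TATA box. Another is TGATAA, a binding motif of GATA factors such as those of mast cells. Its other common form, AGATAA, was searched as well and found in none of these windows. The last is GAGGAA, the core bound by the myeloid factor PU.1, whose match on the minus strand reads TTCCTC. The windows are chr14:56017714-56017963 (plus strand), chr14:56062311-56062560 (minus), chr14:56085198-56085447 (minus) and chr10:79879417-79879666 (plus), each written 5′ to 3′. The RefSeq starts used for them can differ from the GENCODE gene ends given above, and for Prtn3 the RefSeq start lies inside the longer GENCODE gene, so its window does too.
Mcpt1: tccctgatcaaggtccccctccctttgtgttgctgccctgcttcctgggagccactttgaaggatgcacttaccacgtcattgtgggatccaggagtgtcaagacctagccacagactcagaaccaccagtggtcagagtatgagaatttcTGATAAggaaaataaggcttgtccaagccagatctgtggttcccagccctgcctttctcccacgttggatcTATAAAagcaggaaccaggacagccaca
Mcpt4: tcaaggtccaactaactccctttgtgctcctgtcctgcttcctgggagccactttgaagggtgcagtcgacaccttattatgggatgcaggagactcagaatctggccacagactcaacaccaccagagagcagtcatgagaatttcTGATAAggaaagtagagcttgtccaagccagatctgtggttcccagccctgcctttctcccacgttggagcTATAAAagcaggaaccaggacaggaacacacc
Mcpt8: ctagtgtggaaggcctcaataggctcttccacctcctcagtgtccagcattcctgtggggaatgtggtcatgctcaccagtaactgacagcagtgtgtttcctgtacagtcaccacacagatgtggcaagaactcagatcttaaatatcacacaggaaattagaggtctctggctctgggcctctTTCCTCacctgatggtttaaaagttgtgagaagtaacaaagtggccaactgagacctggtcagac
Prtn3: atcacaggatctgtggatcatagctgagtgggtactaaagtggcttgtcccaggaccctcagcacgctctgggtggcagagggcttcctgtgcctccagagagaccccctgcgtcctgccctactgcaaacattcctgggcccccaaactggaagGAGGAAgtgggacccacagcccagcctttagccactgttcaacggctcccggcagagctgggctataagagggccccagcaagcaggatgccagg

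The promoters of Mcpt1 and Mcpt4, compared over the window from 250 bases before to 50 after the start, matched at 249 of 291 aligned bases (85.6%), and both held TGATAA and TATAAA. In Mcpt1 these began 99 and 28 bases before the start, and in Mcpt4 103 and 32 bases before it. The Mcpt8 promoter matched that of Mcpt1 at 65.6% of aligned bases and held neither motif, but had a GAGGAA on the minus strand, 65 bases before the start. GAGGAA was also in the Prtn3 promoter, 95 bases before the start, and none of the motifs was in that of Cma1. The AP-1 forms TGAGTCA and TGACTCA, searched on both strands, were in none of the 5. Among 32851 promoters of the same length, 13.6% held TATAAA, 18.6% either form of the GATA motif, 28.3% GAGGAA and 5.20% an AP-1 form. These letter matches describe the windows only.

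The medium tumor table held 2812 cells with a median of 5456.5 unique molecular identifiers (UMIs, each standing for 1 captured transcript) and that of the large tumor 1533 cells with a median of 1037. Cells were clustered within each tumor without the 16 protease genes of the locus and of Prtn3, and a cluster was called X-like from at least 3 detected markers of a class. This gave 8 epithelial-like clusters of 14 in the medium tumor (2328 cells, 82.8%) and 7 of 10 in the large tumor (1219 cells, 79.5%). Carcinoma cells could not be told from other epithelial cells by these markers, so the cells are called epithelial-like here. The monocyte/macrophage-like cells are the comparison for background, with medians of 3511 and 688 UMIs beside 5982.5 and 1174 in epithelial-like cells. Levels are counts per 1000000 UMIs (CPM) of the summed cells, with exact 95% intervals that cover counting error only. The 2 tables shared 5 cell barcodes.

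No mast cell or basophil cluster was found. Cpa3, Fcer1a and Ms4a2 had 0 UMIs in both tumors, in tables of 20301669 and 2239012 UMIs, where a floor of 3 counts stands for 0.148 and 1.34 CPM. Kit had 66 UMIs in the medium and 19 in the large tumor. Of a longer list of 12 mast cell genes, 5 were at 0 in the medium tumor and 6 in the large, Cpa3, Fcer1a, Ms4a2, Tpsb2 and Mrgprb1 in both. The summed list was 6.25 CPM in epithelial-like cells of the medium tumor, against 31.4 CPM in monocyte/macrophage-like, 42.2 CPM in stromal-like, 85.0 CPM in endothelial-like and 107.3 CPM in mesothelial-like cells. In the medium tumor, no cluster held more than 2 detected mast cell markers, and in the large tumor none held more than 1.

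The medium tumor held 50 UMIs or more of 4 of the genes, and Mcpt1, Mcpt2 and Mcpt8 were highest in epithelial-like cells while Prtn3 was not. Mcpt2 had 4492 UMIs in the medium and 116 in the large tumor. The basophil gene Mcpt8 had 2460 and 197, and Mcpt1 had 1714 and 20. Prtn3 had 559 and 3 UMIs. The connective tissue mast cell chymases were near or at 0, with 35 and 0 UMIs of Mcpt4 and 1 and 0 of Cma1. Only Mcpt2 and Mcpt8 passed 50 UMIs in both tumors, and no level can be given for Cma1.

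In the medium tumor, Mcpt2 stood at 241.5 CPM (234.4 to 248.7) in epithelial-like cells and 56.7 CPM (47.3 to 67.6) in all other cells, a ratio of 4.26 (3.57 to 5.12). Of the 126 UMIs in other cells, 77 came from a mixed cluster of 66 cells that was left unnamed, and without it the ratio was 9.28 (7.004 to 12.6). Against monocyte/macrophage-like cells alone, at 10.8 CPM, the ratio was 22.3 (12.1 to 46.5). The Mcpt8 level was 133.8 CPM (128.5 to 139.2) in epithelial-like and 18.5 CPM (13.3 to 25.05) in other cells, or 7.25-fold higher (5.33 to 10.1) in the former. For Mcpt1 the levels were 92.6 CPM (88.3 to 97.2) in epithelial-like and 17.6 CPM (12.5 to 24.0) in other cells, 5.28-fold apart (3.84 to 7.44). All 3 were above the background in monocyte/macrophage-like cells, which was 12.9% of the epithelial-like level for Mcpt1, 4.48% for Mcpt2 and 5.66% for Mcpt8, beside 4.95% for Krt8, 5.40% for Krt18 and 10.6% for Cdh1. Of the 11 Mcpt1 UMIs in monocyte/macrophage-like cells, 8 were in 1 cell. Most levels in the other classes were higher than in monocyte/macrophage-like cells. Mcpt2 was at 59.5 CPM (32.5 to 99.9) in endothelial-like, 40.9 CPM in mesothelial-like and 27.1 CPM in stromal-like cells. In the same order, Mcpt8 was at 25.5, 33.2 and 9.04 CPM and Mcpt1 at 4.25, 15.3 and 15.1 CPM. The keratins themselves were 4.72-fold (Krt8) and 4.69-fold (Krt18) higher in epithelial-like than in other cells, and Cdh1 3.39-fold.

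Of 11205 genes with 50 UMIs or more in the medium tumor, 14.1% were at least 2-fold higher in epithelial-like than in other cells and 11.8% at least 2-fold lower; 4 of the 6 protease genes could be counted, of which 3 were higher and 1, Prtn3, was lower. The large tumor had 4829 such genes, of which 23.4% were at least 2-fold higher in epithelial-like cells and 9.32% lower, and the 2 protease genes that could be counted, Mcpt2 and Mcpt8, were both higher. At clustering resolution 1.2, 2 and not 3 were higher in the medium tumor, where Mcpt8 lost its place, and 1 and not 2 in the large. Since the genes were chosen with such values known, these counts are descriptions.

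Prtn3 went against its grouping with the epithelial-like cells. It stood at 449.3 CPM (407.1 to 494.7) in monocyte/macrophage-like cells (medium tumor) and at 4.09 CPM (3.21 to 5.14) in epithelial-like cells, a ratio of 109.8 (85.5 to 142.6) in favor of the former. Against all other cells, at 218.4 CPM, the ratio was 53.4 (41.7 to 69.1), which ran from 30.6 with classes called cell by cell to 88.5 without the 5% of cells with the highest doublet scores. Monocyte/macrophage-like cells held 74.2% of its UMIs and epithelial-like cells 13.2%. Its level in epithelial-like cells was 0.911% of that in monocyte/macrophage-like cells, beside 0.534% for the complement gene C1qa, 0.733% for the lysozyme gene Lyz2 and 1.13% for the signaling adaptor Tyrobp. Over the 11 listed monocyte/macrophage markers this value ran from 0.534% for C1qa to 12.3% for Cd14, with Cd68 at 2.75% and Csf1r at 2.99%. The source of Prtn3 in epithelial-like cells was not tested. Elane, the next gene on the chromosome, had 1 UMI. Of the other genes of a neutrophil precursor list, Mpo had 2 UMIs, Ctsg 1, Ms4a3 2 and the transcription factor Cebpe 14.

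**Figure D1:**
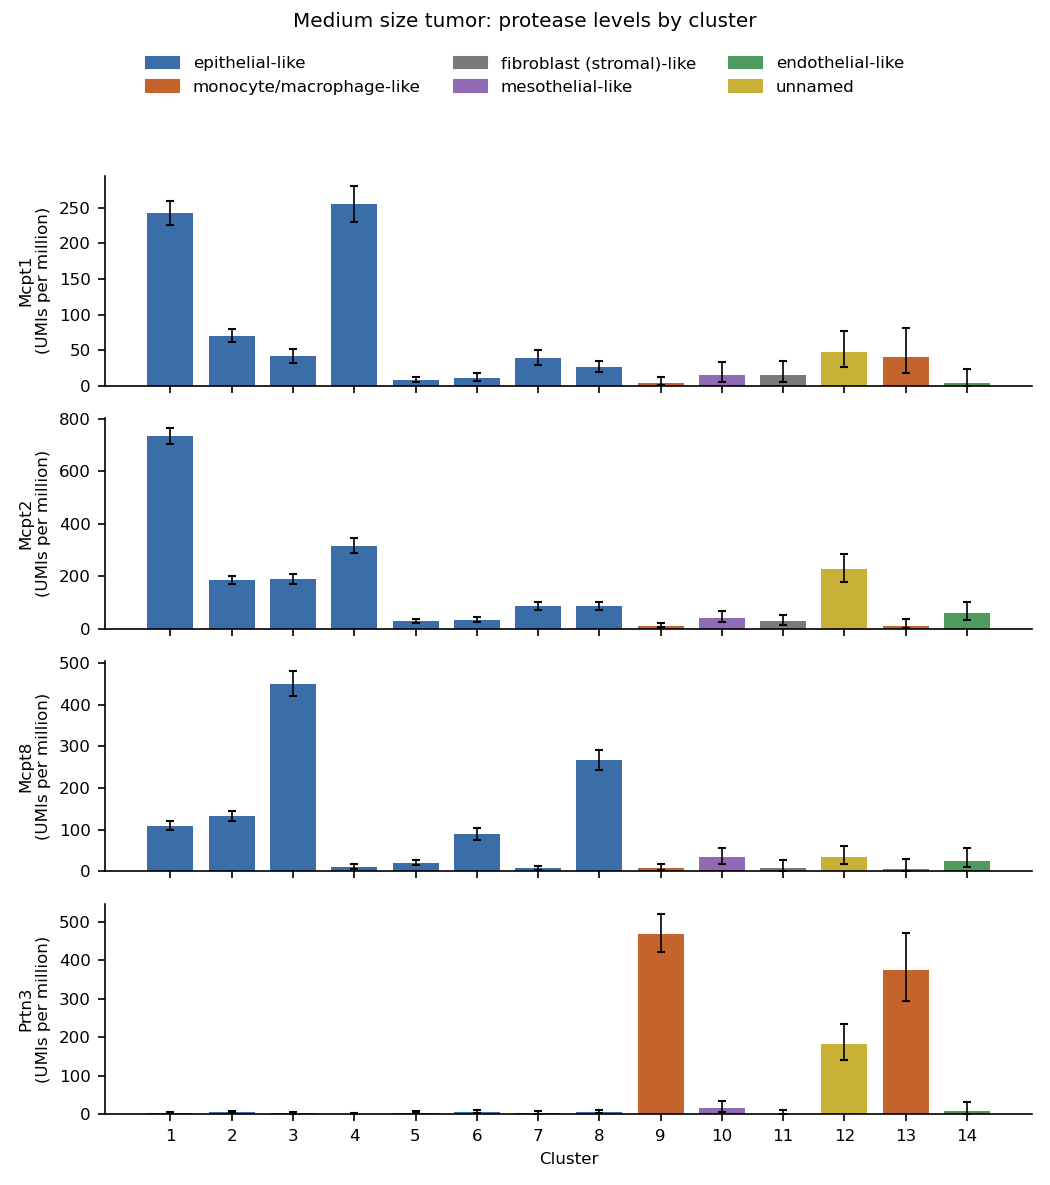
Bars give the CPM (counts per 1000000 UMIs) of Mcpt1, Mcpt2, Mcpt8 and Prtn3 (one panel and y axis each) in each of the 14 clusters of the medium size tumor (x axis), colored by the class of the cluster, with exact 95% Poisson intervals. Mcpt1 was highest in epithelial-like clusters 1 and 4, Mcpt2 in cluster 1 and Mcpt8 in clusters 3 and 8, whereas Prtn3 was highest in monocyte/macrophage-like clusters 9 and 13.

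The same placing was seen cell by cell. In the medium tumor, 579 of 599 cells with a Mcpt1 UMI (96.7%; exact binomial interval 94.9 to 97.9) lay in epithelial-like clusters, as did 913 of 960 with Mcpt2 (95.1%), 530 of 555 with Mcpt8 (95.5%) and 26 of 27 with Mcpt4. These clusters held 82.8% of all cells and 89.1% of all UMIs. Of 172 cells with Prtn3, 45 (26.2%; 19.8 to 33.4) lay in epithelial-like and 101 (58.7%) in monocyte/macrophage-like clusters. The epithelial-like clusters of the large tumor held 17 of 17 cells with Mcpt1, 81 of 82 with Mcpt2 and 112 of 112 with Mcpt8, while the 3 cells with Prtn3 were all monocyte/macrophage-like. Mcpt8 stood there at 100.6 CPM (87.02 to 115.6) in epithelial-like cells and at 0 UMIs in all others, at least 9.40-fold higher when 3 counts over the other cells are taken as the floor. Mcpt2 stood at 58.7 CPM (48.5 to 70.5) and Mcpt1, with 20 UMIs, at 10.2 CPM (6.24 to 15.8), a level at which the other cells' 0 UMIs could not be told from it at this depth.

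The share of cells with a UMI gave the same order against background. In the medium tumor, 24.9% of epithelial-like cells had a Mcpt1 UMI against 1.67% of monocyte/macrophage-like cells, 39.2% against 4.18% had Mcpt2, and 22.8% against 2.51% had Mcpt8. When every cell was thinned to 2500 UMIs to equalize depth, the shares were 14.3% against 1.26%, 26.6% against 2.09% and 13.1% against 0.418%. Prtn3 went the other way, at 1.93% of epithelial-like and 42.3% of monocyte/macrophage-like cells, or 0.773% and 34.3% after thinning.

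One limit touches the basophil gene Mcpt8 in particular. At a higher clustering resolution of 1.2, a cluster of 227 cells that all lay in epithelial-like clusters before had only 2 detected epithelial markers and lost its name, although Krt18 was in 100% and Krt8 in 96.0% of its cells and Ptprc in 5.29%. It held 20.2% of the Mcpt8 UMIs, and with it among the other cells the Mcpt8 ratio was 0.904 (0.822 to 0.997) instead of 7.25. Clusters of 202 and 83 cells in the large tumor lost the name in the same way, with Krt18 in 61.9% and 88.0%, Krt8 in 40.6% and 73.5% and Cdh1 in 4.46% and 10.8% of their cells. They held 25.4% and 18.3% of the Mcpt8 UMIs of that tumor, and the share of Mcpt8 cells in epithelial-like clusters was 53.6%. Leaving out the 5% of cells with the highest doublet scores (Scrublet) in the medium tumor gave larger ratios, of 12.0 for Mcpt1, 6.72 for Mcpt2 and 11.6 for Mcpt8.

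The transcripts were concentrated in few cells, counted as raw UMIs and not scaled for depth. Of the 2812 cells of the medium tumor, the 5% with the most Mcpt8 held 70.8% of its UMIs, and for Mcpt1 and Mcpt2 these shares were 59.4% and 51.3%. A single Mcpt8 UMI was seen in 243 cells and 10 or more in 60, and the highest cells had 89, 54 and 48. For Mcpt2, 345 cells had 1 UMI and 116 had 10 or more, up to 83. For Mcpt1, 282 cells had 1 UMI and 26 had 10 or more, up to 37. The highest counts in a cell of the large tumor were 3 of Mcpt1, 10 of Mcpt2 and 5 of Mcpt8.

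Cells with many protease transcripts held keratin and Cdh1 transcripts, and Kit had 0 to 5 UMIs in each group of them. All 26 cells with 10 or more Mcpt1 UMIs were in epithelial-like clusters, with Krt8 at 4236 CPM, Krt18 at 4396 CPM and Cdh1 at 434.1 CPM in their sum and 0 UMIs of the leukocyte gene Ptprc; epithelial-like cells without Mcpt1 had 3091, 4320 and 225.8 CPM of Krt8, Krt18 and Cdh1. Of the 116 cells with 10 or more Mcpt2 UMIs, 113 were epithelial-like, with Krt8 at 3265 CPM, Krt18 at 4221 CPM and Ptprc at 3.74 CPM (4 UMIs). All 60 cells with 10 or more Mcpt8 UMIs were epithelial-like, with Krt8 at 2628 CPM, Krt18 at 4374 CPM and Ptprc at 6.89 CPM (5 UMIs; 2.24 to 16.1), against 2.77 CPM (1.93 to 3.85) in epithelial-like cells without Mcpt8. Their Krt8 was below the 3153 CPM of epithelial-like cells without Mcpt8, and their Krt18 above the 4158 CPM there. The groups with 10 or more UMIs were also deeper, with medians of 8013.5 (Mcpt1), 8327.5 (Mcpt2) and 11276 (Mcpt8) UMIs in a cell. Epithelial-like cells without each gene had medians of 5763, 5576 and 5426.5. Cpa3, Fcer1a and Ms4a2 had 0 UMIs in the whole of both tumors, so they could not be found in these cells. Kit had 2 UMIs in the high Mcpt1 cells, or 8.43 CPM (1.02 to 30.4). It had 5 in the high Mcpt2 cells, or 4.67 CPM (1.52 to 10.9), and 0 in the high Mcpt8 cells. All cells without each gene had 3.14, 3.53 and 3.67 CPM, and epithelial-like cells without it 2.50, 2.83 and 3.16 CPM. Kit was thus higher in the high Mcpt1 and Mcpt2 cells, on few UMIs and with overlapping intervals. The 6 cells with 10 or more Prtn3 UMIs were the opposite case, with 0 in epithelial-like clusters and Krt8 at 132.0 CPM.

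Single cells with at least 1 UMI of a protease were compared with those without for the markers of each cell type. After thinning to 2500 UMIs, Krt8, Krt18 or Cdh1 was found in 341 of 343 cells with Mcpt1 (99.4%) and in 91.9% of cells without, in 648 of 651 with Mcpt2 (99.5%) and 90.8% without, and in 314 of 317 with Mcpt8 (99.1%) and 92.0% without. For Prtn3 the order was turned, at 68 of 119 cells (57.1%) with it and 94.4% without. Krt8 and Krt18 were near saturation in this tumor, and Cdh1 separated the cells more: it was in 54.8% (49.4 to 60.2) of cells with Mcpt1 and 37.4% without, 52.8% and 35.5% for Mcpt2, and 47.9% (42.3 to 53.6) and 38.5% for Mcpt8. Within epithelial-like cells alone, Cdh1 was in 55.4% (49.9 to 60.8) of cells with Mcpt1 and 43.6% (41.4 to 45.9) without, and for Mcpt8 in 49.2% (43.4 to 54.9) and 44.7% (42.6 to 46.9), shares whose intervals overlap.

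In the medium tumor, the shares of cells with a mast cell gene had overlapping intervals between cells with and without a protease. Of the 4 genes Kit, Cpa3, Fcer1a and Ms4a2, Kit was the only one detected, and without thinning it was in 16 of 599 cells with Mcpt1 (2.67%; 1.53 to 4.30) and 1.94% of those without, in 2.19% and 2.05% for Mcpt2 and in 2.16% and 2.08% for Mcpt8. After thinning, 4 of 343 cells with Mcpt1, 4 of 651 with Mcpt2 and 2 of 317 with Mcpt8 had Kit, shares of 1.17% (0.319 to 2.96), 0.614% and 0.631%, against 0.648% (0.371 to 1.05), 0.740% and 0.721% of cells without each. Kit itself was at 2.82 CPM in epithelial-like and 6.75 CPM in other cells of the medium tumor, a ratio of 0.418 (0.231 to 0.7997). It ran the other way in the large tumor, at 9.19 CPM (18 UMIs) and 3.57 CPM (1 UMI), a ratio of 2.58 with a wide interval (0.407 to 107.3). The summed mast cell list was 6.78 CPM in epithelial-like cells with Mcpt1, 5.86 CPM in those with Mcpt2, 5.16 CPM in those with Mcpt8 and 14.4 CPM (4 UMIs) in those with Mcpt4, beside 6.25 CPM in epithelial-like cells of that tumor as a whole. The large tumor had 18.9 CPM of the list in epithelial-like, 5.10 CPM in monocyte/macrophage-like and 117.4 CPM in stromal-like cells. Its epithelial-like cells with Mcpt1 had 68.6 CPM of the list (2 UMIs), those with Mcpt2 30.8 CPM (6 UMIs) and those with Mcpt8 12.2 CPM (4 UMIs).

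Leukocyte markers followed the same split over all cells, where the monocyte/macrophage-like cells are mostly among those without the 3 genes. After thinning, Ptprc was in 1.46% of cells with Mcpt1, 1.23% with Mcpt2 and 1.89% with Mcpt8, below the 4.13% to 4.67% of cells without each, and in 23.5% (16.2 to 32.2) of cells with Prtn3 against 3.01% without. Within epithelial-like cells the thinned shares with Ptprc were 0.904% and 0.902% with and without Mcpt1, 0.647% and 0.994% for Mcpt2, and 1.31% (0.359 to 3.32) and 0.840% (0.490 to 1.34) for Mcpt8. Lyz2 in these cells was at 188.3 CPM (176.1 to 201.2) with 1 to 9 Mcpt8 UMIs and 112.4 CPM (106.6 to 118.4) without, while the thinned share of cells with Lyz2 was 19.0% (14.8 to 23.9) with Mcpt8 and 21.4% (19.6 to 23.2) without. For 1 to 9 UMIs of Mcpt1 and for none the Lyz2 levels were 115.9 and 140.0 CPM, and for Mcpt2 130.7 and 134.4 CPM. Over all cells, Lyz2 was in 91.6% (85.1 to 95.9) of those with Prtn3 and 26.8% without. The 45 epithelial-like cells with Prtn3 had more Lyz2 (308.7 CPM) than the other epithelial-like cells (127.9 CPM) and about the same Krt18 (4201 and 4251 CPM), but less Krt8 (2572 and 3146 CPM) and Cdh1 (190.4 and 245.7 CPM), with a median of 9859 UMIs against 5941. The part of mixed droplets or free RNA in these 45 cells was not tested.

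**Figure D2:**
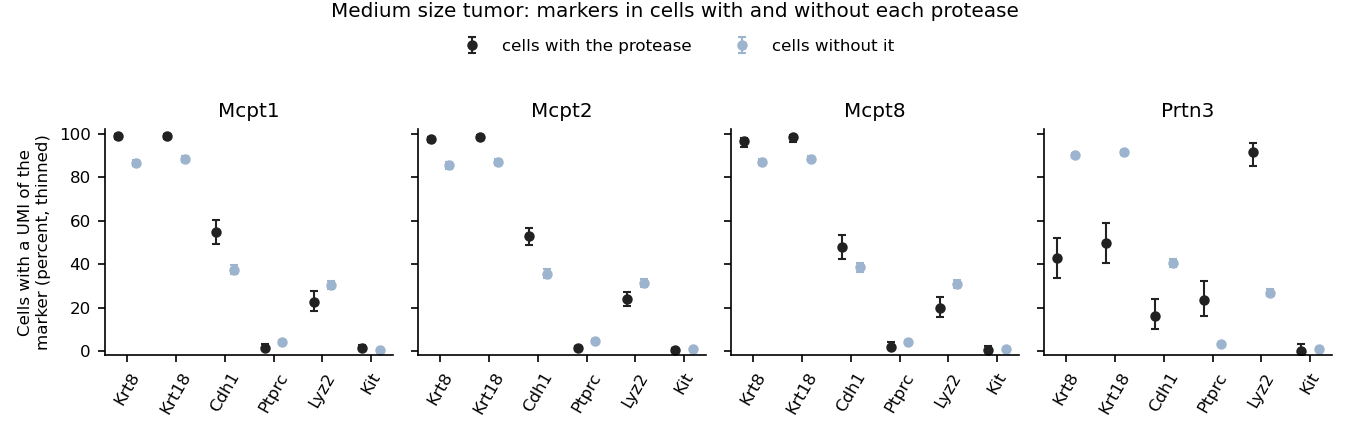
Points give the percent of cells of the medium size tumor with a UMI of each marker (x axis), among cells with (black) and without (blue) a UMI of Mcpt1, Mcpt2, Mcpt8 or Prtn3 (one panel each), after thinning every cell to 2500 UMIs, with exact binomial 95% intervals. Krt8, Krt18 and Cdh1 were more frequent in cells with Mcpt1, Mcpt2 or Mcpt8 and less frequent in cells with Prtn3, Lyz2 and Ptprc were more frequent in cells with Prtn3, and Kit was close to 0 in every panel.

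Depth in the large tumor set a limit on the same comparison. Without thinning, an epithelial marker was in 72 of 82 cells with Mcpt2 (87.8%; 78.7 to 94.0) and 67.6% of those without, and in 101 of 112 cells with Mcpt8 (90.2%) and 67.0% without, but cells with Mcpt8 had a median of 2286 UMIs and those without 980. Thinned to 500 UMIs, 18 of 29 cells with Mcpt2 had a marker (62.1%) against 50.2%, and 16 of 38 with Mcpt8 (42.1%; 26.3 to 59.2) against 50.6%, so no order was read from these shares for Mcpt8. As levels in epithelial-like cells of the large tumor, Cdh1 was at 67.0 CPM (41.99 to 101.4) with Mcpt8 and 181.6 CPM (161.5 to 203.5) without, Krt8 at 868.0 CPM (770.2 to 974.9) and 1159 CPM (1108 to 1213), and Krt18 at 1221 CPM (1105 to 1347) and 947.0 CPM (900.4 to 995.5). Cdh1 and Krt8 were lower and Krt18 higher in these cells with Mcpt8. For Cdh1 the same measure in the medium tumor showed no clear order. Its epithelial-like cells had 249.6 CPM (235.6 to 264.3) with 1 to 9 Mcpt8 UMIs and 235.6 CPM (201.6 to 273.6) with 10 or more. Those without Mcpt8 had 242.6 CPM (234.1 to 251.4). Kit was in 1 of 17 cells with Mcpt1 (5.88%; 0.149 to 28.7) and 15 of 1516 without, in 3 of 82 cells with Mcpt2 (3.66%; 0.761 to 10.3) and 13 of 1451 without (0.896%), and in 2 of 112 with Mcpt8 (1.79%) and 14 of 1421 without. As a level, Kit was at 68.6 CPM (8.30 to 247.7) in cells with Mcpt1, on 2 UMIs, and 7.69 CPM (4.48 to 12.3) without. Its level was 20.6 CPM (5.62 to 52.8) in cells with 1 to 9 Mcpt2 UMIs, on 4 UMIs, and 7.34 CPM (4.11 to 12.1) without. The Kit values were higher in cells with Mcpt1 or Mcpt2, on 2 and 4 UMIs, and their intervals overlap those of the cells without.

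The epithelial-like cells were not uniform, and Mcpt1 and Mcpt2 had another distribution than Mcpt8. In the medium tumor, Mcpt2 was highest in cluster 1 (504 cells, led by the gastric genes Gkn1, Gkn2 and Gkn3 and by Agr2), at 734.6 CPM (705.8 to 764.2) with a UMI in 72.8% of cells. Cluster 4 (281 cells, led by Tff3, Ly6d and Reg1) followed at 314.9 CPM (287.7 to 344.0). Clusters 3 and 2 stood next at 189.2 CPM (170.1 to 209.9) and 185.0 CPM (171.0 to 199.8) and could not be told apart. The lowest were clusters 6 and 5 at 33.2 and 29.1 CPM, within the interval of the mesothelial-like cells (23.4 to 66.4). Mcpt1 was at 254.6 CPM (230.2 to 281.0) in cluster 4 and 241.9 CPM (225.5 to 259.1) in cluster 1, which overlap, then at 70.5 CPM in cluster 2, and lowest at 7.89 CPM (4.95 to 12.0) in cluster 5. Of the 34 Mcpt4 UMIs in epithelial-like cells, 14 were in cluster 1 and 10 in the cycling cluster 2.

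Mcpt8 was highest in cluster 3 (286 cells, led by Mcpt8 itself, Cldn6, Hmga2 and En1), at 449.3 CPM (419.6 to 480.5) with a UMI in 40.2% of cells. Cluster 8 (226 cells, led by Inhba and Bmp2, the cluster named epithelial-like from 3 markers) followed at 266.6 CPM (243.7 to 291.2). The cycling cluster 2, led by Ube2c, Birc5 and Top2a, was at 133.1 CPM (121.2 to 145.7), cluster 1 at 109.4 CPM (98.5 to 121.2) and cluster 6 (led by Krt17 and Cldn4) at 89.5 CPM. In cluster 4, where Mcpt1 was about as high as in cluster 1, Mcpt8 was at 10.3 CPM (5.87 to 16.7). In cluster 7 (led by Dmbt1 and Lcn2) Mcpt8 was at 7.28 CPM (3.49 to 13.4). That is within the interval of the monocyte/macrophage-like cells, at 7.58 CPM (3.05 to 15.6). Prtn3 ran from 0.641 to 6.45 CPM over the 8 epithelial-like clusters and stood at 469.2 CPM (420.8 to 521.7) and 374.8 CPM (293.8 to 471.3) in the monocyte/macrophage-like clusters 9 and 13. Cluster 12, unnamed because it held markers of both classes, had 183.2 CPM of Prtn3 and 227.5 CPM of Mcpt2.

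In the large tumor, too, Mcpt2 and Mcpt8 were highest in different clusters, with lower levels of each in the other's top cluster. Mcpt2 was highest in the cluster led by Gkn2, Gkn3 and Tff1 (135 cells), at 195.4 CPM (147.2 to 254.4), and Mcpt1 was at 32.0 CPM (14.6 to 60.7) there. Mcpt8 was highest in the cluster led by Ggct, Ramp1 and Hmga2 (283 cells) at 184.4 CPM (147.1 to 228.3) and in the cycling cluster (189 cells) at 171.0 CPM (139.7 to 207.2), levels whose intervals overlap. In the Gkn2 cluster Mcpt8 was at 14.2 CPM, and in the Ggct cluster Mcpt2 was at 22.0 CPM. The matching values in the medium tumor were 109.4 CPM of Mcpt8 in cluster 1 and 189.2 CPM of Mcpt2 in cluster 3. The clusters led by enterocyte genes (Fabp1, Mttp; 210 cells) and goblet cell genes (Tff3, Muc2; 159 cells) had Mcpt8 at 5.17 and 0 CPM, and Mcpt2 at 0 and 54.9 CPM.

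**Figure D3:**
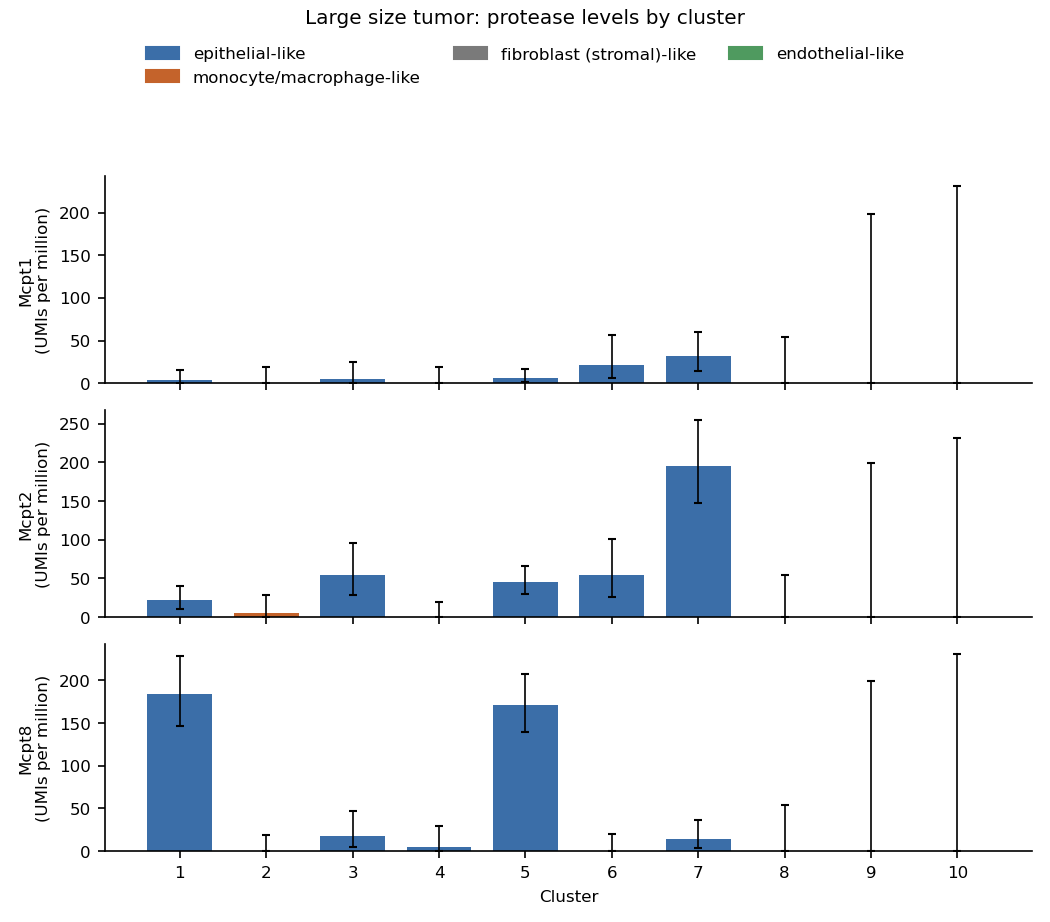
Bars give the CPM (counts per 1000000 UMIs) of Mcpt1, Mcpt2 and Mcpt8 (one panel and y axis each) in each of the 10 clusters of the large size tumor (x axis), colored by class, with exact 95% Poisson intervals; a line without a bar is a cluster with 0 UMIs. Mcpt8 was highest in clusters 1 and 5 and Mcpt2 in cluster 7, and the small clusters 8, 9 and 10 had 0 UMIs with wide intervals.

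Mcpt1 and Mcpt2 were found together in single epithelial-like cells of the medium tumor. Of 2328 such cells, 1111 (47.7%) had none of Mcpt1, Mcpt2 and Mcpt8, 580 (24.9%) had 1 of them, 469 (20.1%) had 2 and 168 (7.22%) had all 3. Mcpt2 was in 473 of 579 cells with Mcpt1 (81.7%) and 25.2% of those without, and after thinning in 229 of 332 (69.0%; 63.7 to 73.9) and 19.5%. Cells with Mcpt8 had Mcpt2 in 47.2% (41.5 to 53.0) after thinning, against 23.4% of those without, and had Mcpt1 in 21.3% against 13.2%. Of the 26 epithelial-like cells with Mcpt4, 23 had Mcpt2, 17 had Mcpt1 and 14 had Mcpt8. Among epithelial-like cells of the large tumor, 7 of 17 with Mcpt1 had Mcpt2, and 16 of 112 with Mcpt8 had Mcpt2 (14.3%, against 5.87% without), which after thinning was 1 of 38 and could not be read.

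The pairing was also present inside clusters. After thinning, Mcpt1 was more frequent in cells with Mcpt2 than without in all 8 epithelial-like clusters, at 47.4% against 12.6% in cluster 1 and 38.8% against 16.3% in cluster 4. Mcpt8 was more frequent in cells with Mcpt2 in 7 of the 8, at 63.3% (43.9 to 80.1) against 12.8% (8.43 to 18.3) in cluster 8 and 53.8% (41.0 to 66.3) against 21.3% in cluster 3, while in cluster 7 it was 0 of 25 against 2.38%. The intervals overlapped in clusters 4, 5, 6 and 7 for Mcpt8 and in clusters 5 and 8 for Mcpt1. Cells of a cluster are not replicates, so these are descriptions of 1 tumor.

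**Figure D4:**
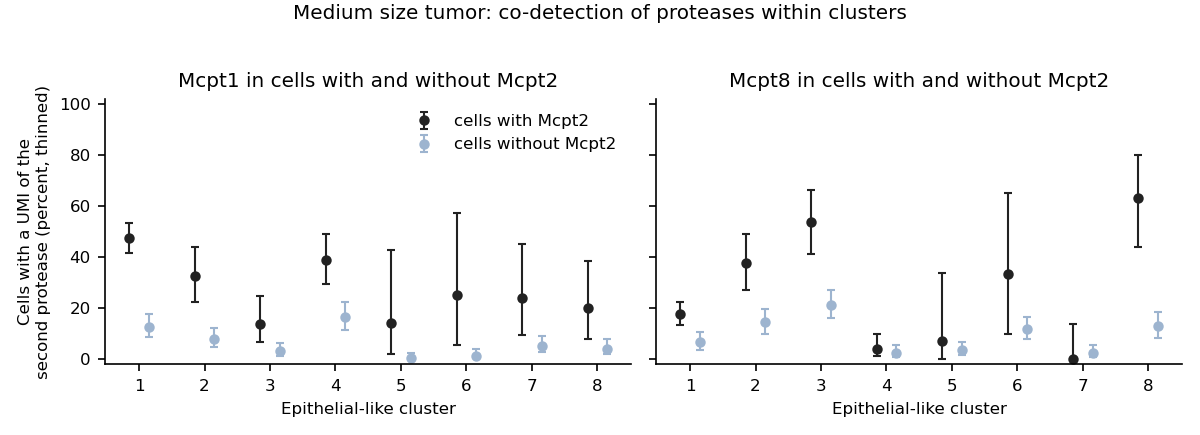
Points give the percent of cells with a UMI of Mcpt1 (left panel) or Mcpt8 (right panel) among cells with (black) and without (blue) Mcpt2 in each of the 8 epithelial-like clusters of the medium size tumor (x axis), after thinning to 2500 UMIs, with exact binomial 95% intervals. Cells with Mcpt2 had the higher share of Mcpt1 in all 8 clusters, and of Mcpt8 most clearly in clusters 3 and 8.

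Over the 2328 epithelial-like cells, the gene most like Mcpt1 was Mcpt2 (Spearman correlation of depth-scaled counts 0.589, among 8580 genes), and next came Fxyd3 (0.424), the chloride channel Cftr (0.399), Gpx2 (0.396) and Agr2 (0.366). For Mcpt2 they were Mcpt1, Fxyd3 (0.461), Gpx2 (0.438), Cftr (0.431) and Gkn1 (0.426). Mcpt8 had another set, Fam213a (0.290), the chromatin protein Hmga2 (0.277), Prrx2 (0.272), Cldn6 (0.269) and Igfbp7 (0.267), and its correlation with Mcpt2 was 0.237 and with Mcpt1 0.120. The genes most like Prtn3 were C1qc, Tyrobp (0.128) and C1qb (0.123). The cells share 1 library and their depth, and the correlations are given as descriptions.

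Between the tumors, epithelial-like cells had more Mcpt1 and Mcpt2 in the medium one and Mcpt8 differed less. The Mcpt1 level was 92.6 CPM in the medium and 10.2 CPM in the large tumor, a ratio of 9.07 (5.86 to 14.9), and the Mcpt2 levels of 241.5 and 58.7 CPM had a ratio of 4.11 (3.42 to 4.99). The Mcpt8 levels of 133.8 and 100.6 CPM had a ratio of 1.33 (1.15 to 1.55), which without the 2 clusters of the large tumor led by intestinal genes was 1.08 (0.934 to 1.26). Without the cluster of each tumor that was named from 3 markers, it was 1.58 (1.30 to 1.92). Of 7634 genes with 200 UMIs or more in the 2 sets of epithelial-like cells, 18.5% were at least 2-fold higher in the medium and 5.74% in the large tumor, and of the 3 proteases that could be counted Mcpt1 and Mcpt2 were higher in the medium. Among other genes of these cells, the ratio was 1.504 for Cdh1, 2.82 for Krt8 and 4.28 for Krt18. The Krt18 ratio is within the interval of Mcpt2 and below that of Mcpt1. For the genes that led cluster 1 of the medium tumor, it was 15.5 (13.9 to 17.4) for Gkn1, 3.10 for Gkn2 and 1.83 for Gkn3. Agr2, also among them, was higher in the large tumor, with a ratio of 0.848 (0.810 to 0.888).

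Prtn3 in monocyte/macrophage-like cells was 449.3 CPM in the medium and 15.3 CPM (3 UMIs) in the large tumor, a ratio of 29.4 (9.98 to 143.1), beside 1.22 (1.18 to 1.27) for Lyz2, 2.85 for C1qa, 4.23 for C1qb, 0.667 for Ctss and 0.596 for Srgn in the same cells. The cycling clusters of the 2 tumors had Mcpt8 levels of 133.1 and 171.0 CPM with overlapping intervals. With 1 animal of each size, the size of the tumor, the animal and the library cannot be told apart.

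The rest of the locus was read for comparison. Of its 15 genes within 320.8 kb, from Cma1 to granzyme B (Gzmb), 5 had no UMI in the medium tumor (Cma2, Mcpt9, Gzmn, Gzmf and Gzmb) and 4 had 50 or more, namely Mcpt1, Mcpt2, Mcpt8 and granzyme E (Gzme), all 4 at least 2-fold higher in epithelial-like cells, beside 14.1% of all genes counted. Of these 4, 3 were chosen with their values known, and Mcpt8 was not higher at resolution 1.2. Of the same 15, 10 were at 0 in the large tumor. Cathepsin G (Ctsg), which lies between Mcpt8 and Gzme, had 1 UMI in the medium tumor. The counted genes were not one unbroken stretch of the locus. No stretch of 50 bases in the last 300 of the Mcpt1, Mcpt2, Mcpt4 and Mcpt8 transcripts was shared between any of them. Mcpt4 shared 12 of its 251 such stretches with Cma2, so a part of its few reads could be uncertain. Only exact matches in 1 transcript of each gene were compared. When aligned, the Mcpt1 transcript matched that of Mcpt2 at 81.8% and that of Mcpt4 at 85.3% of bases. How the reads were assigned between these genes was not tested.

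**Figure D5:**
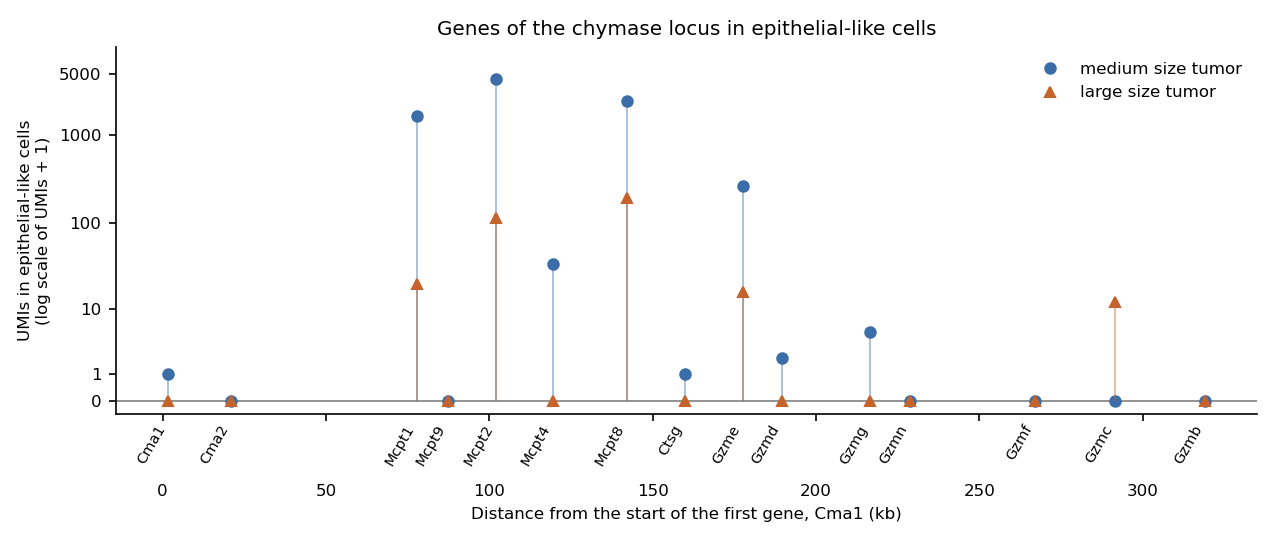
Points give the UMIs of each of the 15 genes of the chymase locus in epithelial-like cells of the medium (circles) and large (triangles) size tumors, on a log scale of UMIs plus 1 (y axis), against the distance in kb from the start of Cma1 (x axis). Mcpt1, Mcpt2, Mcpt8 and Gzme stand out in the medium tumor, with genes at or near 0 between them.

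Gzme, a granzyme gene 15051 bases past Ctsg, was highest in the same 2 clusters as Mcpt8 and low in clusters 1 and 2, where Mcpt8 was at 109.4 and 133.1 CPM. It had 275 UMIs in the medium tumor and was at 77.7 CPM (65.6 to 91.3) in cluster 3 and 34.4 CPM (26.5 to 43.9) in cluster 8, against 1.46 to 3.23 CPM in clusters other than these and cluster 6 (13.5 CPM) among the epithelial-like ones. After thinning, Gzme was in 34 of 317 cells with Mcpt8 (10.7%; 7.54 to 14.7) and 0.761% of cells without. In cells with Mcpt1 it was in 2.92% and in those without in 1.74%. It had 16 UMIs in the large tumor, where 9 of 112 cells with Mcpt8 had it (8.04%; 3.74 to 14.7, not thinned) against 0.352% without.

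The protease activator Ctsc and the storage proteoglycan Srgn were higher in other cells of the medium tumor, and the inhibitors were divided. Of 4 genes listed for activation and granule storage, 3 were at least 2-fold higher outside the epithelial-like cells, beside 11.8% of all genes counted. Ctsc, which encodes the dipeptidyl peptidase that activates granule proteases, was at 88.5 CPM in epithelial-like and 658.2 CPM in monocyte/macrophage-like cells. Srgn, the serglycin core protein, was at 40.2 and 2445 CPM, and Hdc, the enzyme that makes the stored histamine and not a protease partner, at 1.27 CPM against 14.9 CPM in all other cells. Ndst2, an enzyme of heparin synthesis, was within 2-fold, at 5.97 and 7.66 CPM. The large tumor had Ctsc at 109.3 and 1346 CPM and Srgn at 65.9 and 4098 CPM in epithelial-like and monocyte/macrophage-like cells. Of 5 inhibitors, Slpi (92.3 against 2228 CPM) and Serpina3n (3.37 against 245.4 CPM) were higher in other cells, Serpinb1a (99.3 against 61.7 CPM) and Serpinb6a (346.3 against 199.9 CPM) were 1.61-fold and 1.73-fold higher in epithelial-like cells, and Serpina1a was at 0. In the large tumor, Slpi was at 42.4 against 2890 CPM, and Serpinb6a was 2.76-fold (1.72 to 4.71) and Serpinb1a 1.95-fold (1.22 to 3.29) higher in epithelial-like cells.

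Of 8 transcription factors and cytokine inputs of mast cells, 4 had 50 UMIs or more in the medium tumor and all 4 were within 2-fold between epithelial-like and other cells: the Kit ligand Kitl (27.3 and 27.5 CPM), Il3ra (25.9 and 21.2 CPM), Tgfb1 (79.9 and 143.2 CPM) and Notch2 (39.0 and 40.5 CPM). Most genes were in that range, since 14.1% were higher and 11.8% lower in epithelial-like cells. Gata2, the factor shared by mast cells and basophils, had 5 UMIs in epithelial-like cells (0.277 CPM, against 6.30 CPM in other cells), and Mitf was at 0.608 and 9.46 CPM. Of the 8, 2 had 50 UMIs or more in the large tumor, and Kitl was higher in its epithelial-like cells, at 52.1 against 14.3 CPM (3.65-fold; 1.38 to 13.6), beside 23.4% of all genes counted there, while Notch2 was within 2-fold.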

How the data were processed

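Single cells of 2 tumors of untreated KPC mice were measured with the 10x Genomics 3′ kit (v2), per the labels. The authors deposited 1 table of raw UMI counts per gene and cell for each tumor, with the 4 technical replicates pooled; Cell Ranger and the build mm10 are named in the submitters' processing notes, with no version of Cell Ranger. A table was tied to its tumor by the library name that the titles carry. Totals were 20301669 (medium) and 2239012 (large) UMIs.

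The 6 genes, the marker lists and the other lists were chosen with earlier results of these data known. Every deposited barcode was kept. Cells were clustered per tumor with Seurat 5.3.0 (R 4.3.3; total 10000, 2000 variable genes without 16 protease genes, 10 principal components, resolution 0.8). A marker counted when seen in at least 10% of a cluster's cells and at a CPM of at least 25% of that in its highest cluster. A class needed 3 markers, and another class above 60% of the own share left the cluster unnamed; these thresholds were set after values were seen. Scrublet (scanpy 1.11.5) called 0 and 9 doublets, so it did not serve as a filter in the medium tumor and no cell was removed.

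CPM (counts per 1000000 UMIs) carries exact Poisson intervals, shares have exact binomial and ratios exact conditional 95% intervals (SciPy 1.17.1, NumPy 2.4.6, pandas 2.3.3, Python 3.11.15); the floor was 3 counts. Cells were thinned to 2500 (medium) or 500 UMIs (large), leaving none out. TMM scaling used edgeR 4.0.16 as an alternative with no test. Sequences were aligned with Biopython 1.88 and plots made with matplotlib 3.10.9. The named genes were the 6, the listed markers and pathway genes, and the 5 most correlated genes of each; a cluster's leading genes are named to identify it. Alternatives changed resolution (0.4, 1.2), principal components (20), genes clustered, class calls, doublet scores, UMI minimum (2), depth and lists. The scripts were tested on simulated data.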

Additional observations from a re-analysis of the deposited data

How the results depend on the processing

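Of 195 alternative values for 45 results, 129 stayed within the main interval, 65 moved outside it and 1 reversed. The ones without the intestinal clusters, the 3-marker cluster or the unnamed cluster were chosen after seeing the data. No paired analysis was possible because the technical replicates of each tumor are pooled in 1 table, which also left no replicate to leave out. The large tumor's low depth (median 1037 UMIs) limits Mcpt1, Mcpt4, Cma1 and Prtn3 there, and the naming of cells rests on few markers where depth is low.

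The ratios of epithelial-like to other cells in the medium tumor were as follows. At resolution 1.2 the Mcpt8 ratio reversed to 0.904, for the reason given with that result, and Prtn3 (other to epithelial-like cells) was 32.1. With the class called cell by cell, Mcpt2 was 6.69, Mcpt8 4.73 and Prtn3 30.6. Without the 5% of cells with the highest Scrublet scores, Mcpt1 was 12.0, Mcpt2 6.72, Mcpt8 11.6 and Prtn3 88.5. Against monocyte/macrophage-like cells, Mcpt1 was 7.78, Mcpt2 22.3, Mcpt8 17.7 and Prtn3 109.8. Without the unnamed cluster Mcpt1 was 7.58 and Mcpt2 9.28. At resolution 1.2 in the large tumor, 1 and not 2 of the proteases was at least 2-fold higher.

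The percent of positive cells in epithelial-like clusters changed at resolution 1.2 to 92.2 (Mcpt1), 90.1 (Mcpt2) and 81.6 (Mcpt8), without high Scrublet scores to 98.2 (Mcpt1) and 97.2 (Mcpt2), and with 2 UMIs or more to 97.1 (Mcpt2), 97.8 (Mcpt8) and 10.8 (Prtn3). For Prtn3 it was 34.3 by cell-by-cell class and 15.1 thinned. In the large tumor Mcpt2 was 87.8 at resolution 1.2, 91.5 by cell, and 100 with 2 UMIs or thinned, and Mcpt8 was 53.6 at resolution 1.2 and 86.6 by cell.

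The percent of positive cells with Krt8, Krt18 or Cdh1 was 100 for Mcpt1, Mcpt2 and Mcpt8 with 2 protease UMIs and 65.7 for Prtn3. With 2 marker UMIs it was 98.8 (Mcpt2), 98.4 (Mcpt8) and 48.8 (Prtn3), and thinned 57.1 (Prtn3). For the large tumor, thinning gave 62.1 (Mcpt2) and 42.1 (Mcpt8), 2 marker UMIs 70.7 and 74.1, and 2 protease UMIs 95.6 (Mcpt8). The percent with a mast cell gene was, thinned, 1.17 (Mcpt1), 0.614 (Mcpt2), 0.631 (Mcpt8), 0 (Prtn3) and 0 (Mcpt8, large tumor), and with the longer list 5.01, 4.90, 5.41 and 6.40.

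Thinning changed the co-detection in epithelial-like cells to 69.0% (Mcpt2 in Mcpt1 cells), 37.1% (Mcpt1 in Mcpt2 cells), 47.2% (Mcpt2 in Mcpt8 cells), 23.3% (Mcpt8 in Mcpt2 cells) and 21.3% (Mcpt1 in Mcpt8 cells), and in the large tumor to 2.63% (Mcpt2 in Mcpt8 cells) and 3.45% (Mcpt8 in Mcpt2 cells). Clustering on all genes put the highest cluster at 787.6 CPM (Mcpt2) and 402.2 CPM (Mcpt8). The Mcpt8 ratio between tumors was 1.08 without the intestinal clusters and 1.58 without the 3-marker cluster. Pearson correlation kept 3 of the 5 genes most like Mcpt8. Unless stated, the cause of a move was not tested.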

Other observations

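Tpsab1, a mast cell tryptase outside the chymase locus, had 24 UMIs in the medium tumor. The mesothelial-like cluster held 14 of them (35.8 CPM), in 2.70% of its cells and up to 8 in 1 cell, and epithelial-like cluster 4 held 7, with no cell above 1. Kit had its highest level in the endothelial-like cluster (34.0 CPM, 8 UMIs), and among epithelial-like clusters in cluster 4 (10.3 CPM) and cluster 7 (9.46 CPM).

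Granzyme C (Gzmc) had 12 UMIs in the large tumor, all in 1 cell of epithelial-like cluster 3, and 7 UMIs in the medium tumor, all in the stromal-like cluster. The 8 Mcpt1 UMIs of the monocyte/macrophage-like cluster 13 in the medium tumor were in 1 cell. These are single-cell values and were chosen after they were seen.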
